A study of Mus musculus with 6 samples.

Results

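The genes described here are the core autophagy machinery and the cargo receptors that work with it, 38 of the 21878 genes in an RNA-seq table of B16F10 cells, an established mouse melanoma line. They were taken by gene name, with earlier results of these data known: every symbol that begins with Atg and a digit, the ULK kinase and class III phosphatidylinositol 3-kinase (PI3-kinase) subunits, the WIPI proteins, the ATG8 proteins and 5 cargo receptors. Wild-type cells were kept in DMEM (3 libraries) or in RPMI-1640 (3 libraries), both with 10% fetal bovine serum and antibiotics, and every library carries the time label 0, with no unit. The titles of the DMEM libraries hold an unexplained code, HG. Another title code takes a single value in each medium, so whatever it marks cannot be separated from the medium. A last code, also unexplained, ends in 3 in the title of DMEM replicate 3 and in 2 in every other title, and the calls of Atg4c and Atg10 were lost without that library. The series is titled as a study of SLC16A3, a lactate transporter, but no cells with that gene altered were analysed here. The labels' treatment field describes an adipogenic induction regimen and does not say whether these cells received it.

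Autophagy encloses cytoplasm in a double membrane and delivers it to lysosomes. The ULK1 kinase complex starts the process, a class III PI3-kinase marks the membrane with PI3P, ATG9 vesicles and ATG2 lipid transfer build it, and a pair of linked conjugation systems attaches ATG8 proteins to it. Cargo receptors bind ATG8 proteins on one side and ubiquitinated or otherwise marked cargo on the other. The proteins are consumed and recycled as the process runs, so transcript levels do not measure autophagic flux, which was not measured here.

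Of 10 melanocyte and melanoma markers, 9 were at or above 1 FPKM (fragments per kilobase of transcript scaled to the mapped fragments of the library), and their sum ran from 15317 to 15425 FPKM in DMEM and from 11822 to 12058 in RPMI-1640. None of 10 adipocyte markers reached 1 FPKM, and 6 of them were at 0 in every library. Fibroblast markers (2 of 8, Col1a2 and Postn, at or above 1 FPKM), leukocyte markers (2 of 8, Cd68 and Lyz2), endothelial markers (0 of 5) and epithelial markers (0 of 6) each summed to at most 5.97 FPKM in any library. Library depth, recovered from the table, was 36960000 to 46404000 reads, and the FPKM of all genes summed to 475993 to 499334 in DMEM and 431400 to 439693 in RPMI-1640. Of the 38 autophagy genes, 37 averaged at least 1 FPKM and were tested, among 10624 genes in all.

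Across the 37 tested genes, 13 were lower in RPMI-1640, 8 were higher and 16 did not pass (limma on log2(FPKM + 1), adjusted p under 0.05 over all genes tested). The media differed in most of the transcriptome: 76.0% of all tested genes passed, 40.6% higher and 35.4% lower in RPMI-1640, so the 56.8% of autophagy genes that passed is below that background. For 25 of the 37 the lowest library of one medium lay above the highest of the other, 10 higher and 15 lower, against 79.0% of all tested genes, 42.2% higher and 36.7% lower. The size of the difference was at least 0.5 on the log2 scale, with a pass, for 10 lower genes and for 1 higher gene, Rb1cc1. Among all tested genes, 32.9% met that mark, 18.3% higher and 14.6% lower. The median absolute log2 fold change was 0.23 for the autophagy genes and 0.35 for all genes.

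The 13 lower genes included all 5 ATG8 genes, the receptor genes Sqstm1 and Calcoco1, Atg9a, Atg2a and the protease gene Atg4d. The genes for the kinase core of the class III PI3-kinase complexes and for the ATG12-ATG5-ATG16L1 conjugate did not pass. Nothing in the labels gives the libraries of a group separate cultures, so the p-values reflect library-to-library spread alone, and that spread may be technical. In bulk samples, fewer cells of a type and less RNA per cell cannot be told apart. Each fold change is the RPMI-1640 mean less the DMEM mean of log2(FPKM + 1), a scale that understates the change of genes with low values.

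**Figure D1:**
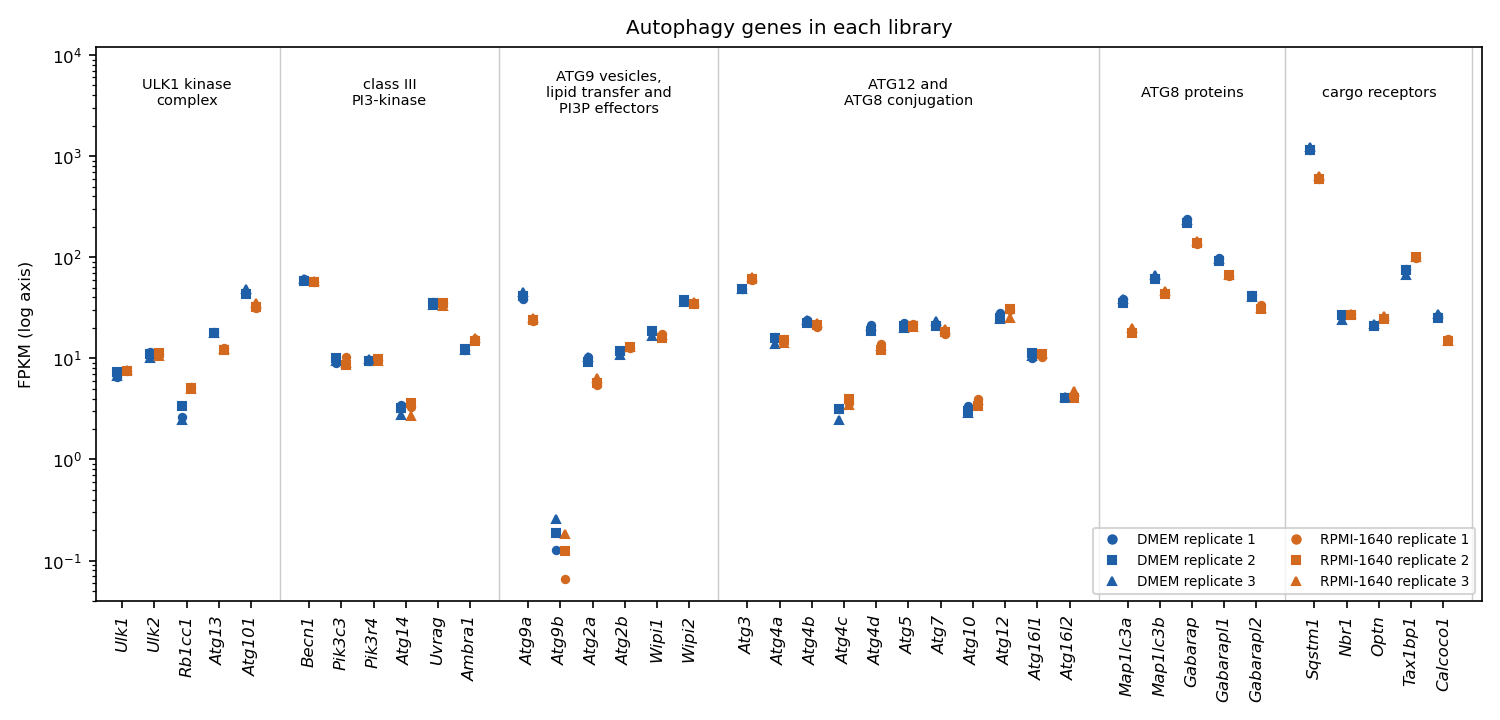
FPKM of each autophagy gene in each library, on a log axis, with DMEM and RPMI-1640 libraries as separate points and genes ordered by role. Sqstm1 is the highest, at 1159 to 1222 FPKM in DMEM and 590 to 629 in RPMI-1640, and Atg9b the lowest, at 0.0657 to 0.26 over the 6 libraries.

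Across all genes, the log2 fold change ran with transcript length and base composition (Spearman's correlation 0.46 with length and -0.47 with GC content over 10308 genes, a description). The same held within the autophagy genes, where the correlation was 0.37 with length and -0.66 with GC content over 37 genes that share the same 6 libraries. The 8 higher genes had a median GC content of 42.1% and a median length of 4274 bases, and the 13 lower genes 54.0% and 1973 bases. For this reason values after removal of each library's length and GC trend stand beside many of the results. With it removed, 5 autophagy genes were higher, 20 lower and 12 did not pass, against 73.9% of all genes that passed, 37.2% higher and 36.8% lower. Of the 21 genes that passed on the deposited values, 16 kept their call and direction. The correlation with GC content was then -0.38 and that with length -0.021.

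Other scalings also moved the balance. Scaled to a common total, 15 autophagy genes were higher and 12 lower, with 51.5% of all genes higher and 25.0% lower. After quantile normalization 5 were higher and 15 lower, with 38.4% and 37.7% of all genes. Over the deposited values and 16 alternatives, 11 genes were lower in every setting: Atg13, Atg9a, Atg2a, Atg4d, Map1lc3a, Map1lc3b, Gabarap, Gabarapl1, Gabarapl2, Sqstm1 and Calcoco1. The 4 genes that were higher in every setting were Ambra1, Atg3, Optn and Tax1bp1. Pik3c3 and Atg14 passed in none, and the other 20 passed in some settings. How many of all tested genes kept a single direction in every setting was not counted, so these counts have no background beside them.

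**Figure D2:**
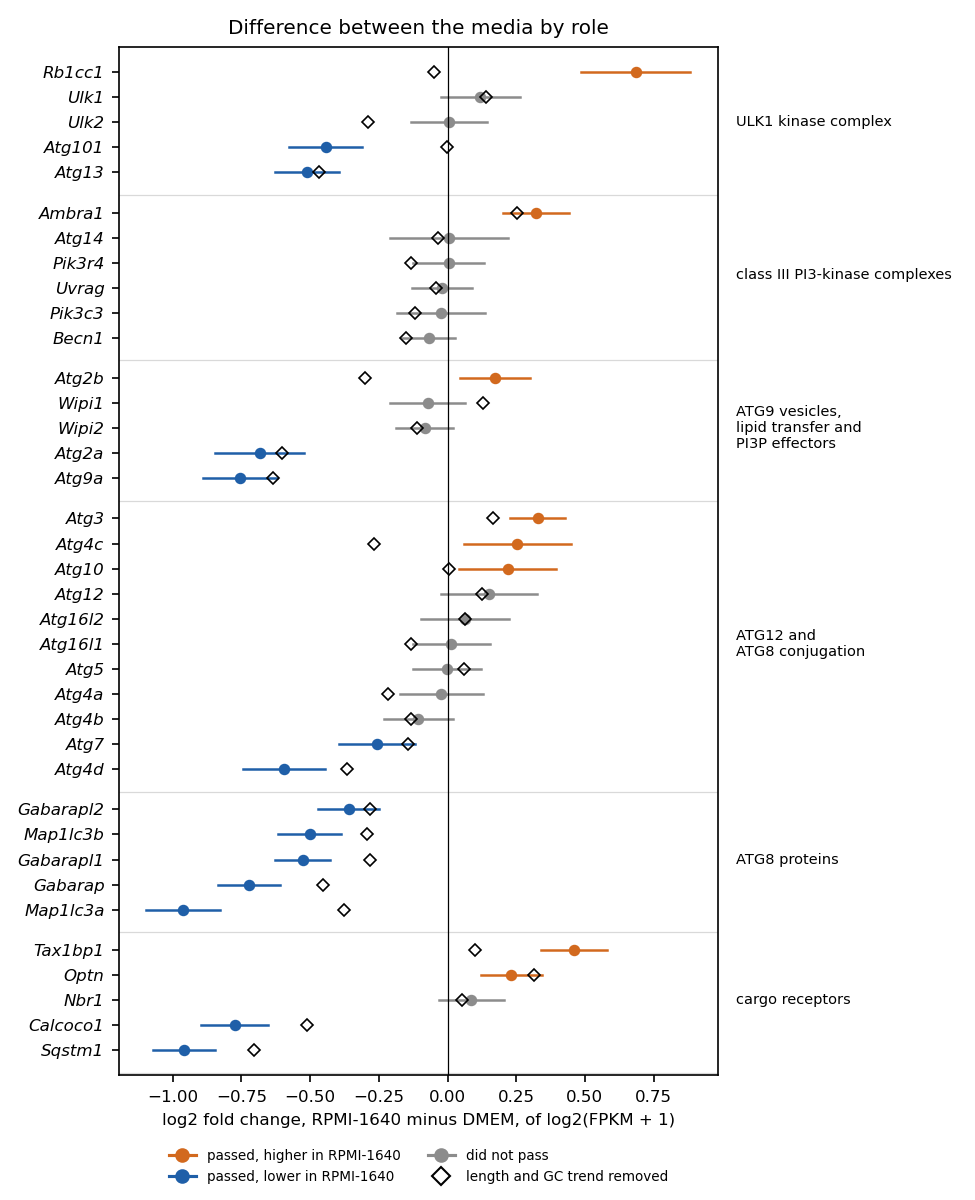
Log2 fold change of each tested autophagy gene between the media by role, with filled points and 95% confidence intervals for the deposited values and open diamonds for the values with the length and GC trend removed. All 5 ATG8 genes lie below 0 in both, from -0.36 to -0.96 as deposited, while Rb1cc1 goes from 0.68 to -0.051.

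In the ULK1 kinase complex, which receives the nutrient signals that start autophagy, 1 gene was higher, 2 were lower and 2 did not pass. Atg13 (chr2:91674618-91710576, minus strand), the subunit that links the kinase to its scaffold, stood at 18.2, 17.7 and 18 FPKM in DMEM and at 12.5, 12.1 and 12.3 FPKM in RPMI-1640. The media did not overlap, and Atg13 fell by 0.51 on the log2 scale (SE 0.053, adjusted p = 4.53e-06) and by 0.47 with the trend removed. Rb1cc1, which encodes the FIP200 scaffold, was at 2.65, 3.40 and 2.47 FPKM in DMEM and at 5.26, 5.14 and 5.02 FPKM in RPMI-1640. Every RPMI-1640 library lay above every DMEM library, a rise of 0.68 (SE 0.091, adjusted p = 3.17e-05), but once the trend in length and GC was removed the difference was -0.051 and did not pass. Rb1cc1 has the lowest GC content of the 37 genes, 39.1%. Its longest GENCODE transcript has 7607 bases, and the length recovered from the FPKM is 7042 bases. Of its 32-base words, 16.9% are in common with the pseudogene Gm13961. The ratio of Rb1cc1 to Atg13 in FPKM was 0.158 ± 0.0295 in DMEM and 0.418 ± 0.0101 in RPMI-1640 (SD, n = 3 each; exact permutation p = 0.1, the smallest that 3 against 3 libraries allow).

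Atg101, the small partner that stabilizes ATG13, was at 44.3, 43.4 and 48.1 FPKM in DMEM and at 31.7, 31.8 and 35.6 FPKM in RPMI-1640. Every DMEM library was higher, and Atg101 fell by 0.44 (adjusted p = 3.84e-05), yet with the trend removed the difference was -0.00071 and did not pass. The 2 kinases did not pass on the deposited values. Ulk1 averaged 6.91 ± 0.431 FPKM in DMEM and 7.58 ± 0.0329 in RPMI-1640 (SD, n = 3 each), a difference of 0.12 with a 95% interval from -0.02 to 0.26, and it passed as higher without DMEM replicate 2 (0.16), with the trend removed (0.14) and scaled to a common total (0.26). After quantile normalization its difference was -0.037 and did not pass. Ulk2 was at 10.2 to 11.5 FPKM in DMEM and 10.6 to 11.2 in RPMI-1640, a difference of 0.0069, and passed as lower with the trend removed (-0.29). Ulk1 made 38.8% of the summed FPKM of both kinases in DMEM and 41.0% in RPMI-1640, a difference of 2.13 percentage points that was 7.84 points with the trend removed.

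The class III PI3-kinase complexes, whose lipid product recruits the later machinery, showed the least difference of the 6 role groups by number of passes, with 1 of 6 genes passing. Ambra1 (chr2:91730134-91918849, plus strand), a Beclin 1 binding protein that also serves ubiquitin ligases, was at 12.2, 12.3 and 12.1 FPKM in DMEM and 15.7, 15 and 15.9 FPKM in RPMI-1640. All RPMI-1640 libraries were higher, with a rise of 0.32 (SE 0.055, adjusted p = 0.000214) that was 0.25 with the trend removed. The catalytic subunit Pik3c3 averaged 9.41 FPKM in DMEM and 9.26 FPKM in RPMI-1640, and its regulatory subunit Pik3r4 (VPS15) 9.59 and 9.62 FPKM. Atg14, which directs the complex to autophagosome formation, averaged 3.17 ± 0.374 FPKM in DMEM and 3.19 ± 0.457 FPKM in RPMI-1640, and Uvrag, the alternative subunit of the endosomal complex, 35.1 ± 1.13 and 34.6 ± 1.18 FPKM (SD, n = 3 each). The libraries of the media overlapped for these 4 genes. Their 95% intervals of the log2 difference were -0.19 to 0.14 for Pik3c3, -0.13 to 0.13 for Pik3r4, -0.21 to 0.22 for Atg14 and -0.13 to 0.09 for Uvrag.

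Becn1, the Beclin 1 scaffold of both complexes, stood at 60.7, 58.7 and 61.0 FPKM in DMEM and at 56.9, 57.1 and 57.8 FPKM in RPMI-1640. The ranges were apart, but the difference of -0.069 did not pass (adjusted p = 0.169), and it passed as lower with the trend removed (-0.15). Of the exon bases of Becn1 over all its GENCODE transcripts, 43.9% overlap Cntd1 on the opposite strand. Its longest transcript has 4365 bases and the length recovered from the FPKM is 2011 bases, so the overlap of the counted bases may differ. Whether counting used strand is not given in the sources used here. Pik3r4 passed as lower with the trend removed (-0.13) and as higher when scaled to a common total (0.15). Uvrag passed as higher when scaled to a common total (0.14).

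Among the genes of ATG9 vesicles, lipid transfer and PI3P effectors, Atg9a and Atg2a were lower and Atg2b was higher. Atg9a (chr1:75180860-75192196, minus strand), the membrane-spanning scramblase of the vesicles that seed the autophagosome, was at 38.7, 41.2 and 45.1 FPKM in DMEM and at 23.3, 24.2 and 25.3 FPKM in RPMI-1640. The lowest DMEM library lay above the highest RPMI-1640 library, and Atg9a fell by 0.75 (SE 0.062, adjusted p = 7.28e-07) and by 0.64 with the trend removed. Its values are uncertain, since 43.7% of its 32-base words also occur in other transcripts, chiefly Gm29253, and 32.6% of its exon bases overlap Ankzf1 or Gm29253. Its paralog Atg9b was at 0.126, 0.187 and 0.260 FPKM in DMEM and at 0.0657, 0.124 and 0.183 FPKM in RPMI-1640, from 10 to 47 reads a library, and was below the level needed for a test.

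The lipid transfer proteins ATG2A and ATG2B move lipids from the endoplasmic reticulum into the growing membrane. Their 2 genes differed in opposite directions on the deposited values. Atg2a was at 10.3, 9.25 and 10.3 FPKM in DMEM and at 5.43, 5.72 and 6.34 FPKM in RPMI-1640, with no overlap and a fall of 0.68 (SE 0.074, adjusted p = 6.07e-06) that was 0.60 with the trend removed. Atg2b was at 11.6, 11.8 and 10.8 FPKM in DMEM and at 12.7, 13.0 and 13.1 FPKM in RPMI-1640. Its ranges were apart and Atg2b rose by 0.17 (adjusted p = 0.0185), but it did not pass without RPMI-1640 replicate 2 (0.17), without RPMI-1640 replicate 3 (0.17) or when quantile normalized (0.067), and with the trend removed it passed as lower (-0.30). Atg2a made 46.7% ± 2.50 of the ATG2 sum in DMEM and 31.0% ± 1.44 in RPMI-1640 (SD, n = 3 each; exact permutation p = 0.1), and with the trend removed 41.5% and 35.7%. The PI3P effectors did not pass. Wipi1 averaged 17.7 FPKM in DMEM and 16.8 FPKM in RPMI-1640, and Wipi2, which recruits ATG16L1 to the membrane, 37.2 and 35.1 FPKM. Wipi1 passed as lower after quantile normalization (-0.15), while with the trend removed its difference was 0.13 and did not pass. Wipi2 passed as lower with the trend removed (-0.11).

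Of the 11 genes of the conjugation systems, 3 were higher, 2 were lower and 6 did not pass. Atg3 (chr16:45158785-45188538, plus strand), the E2-like enzyme that transfers ATG8 proteins to phosphatidylethanolamine, was at 48.8, 48.7 and 48.3 FPKM in DMEM and at 59.4, 61.2 and 63.2 FPKM in RPMI-1640. The media did not overlap, and Atg3 rose by 0.33 (SE 0.045, adjusted p = 4.27e-05), or by 0.17 with the trend removed. Atg7 (chr6:114643097-114860614, plus strand), the E1-like enzyme shared by both systems, went the other way, from 22, 20.8 and 23.5 FPKM in DMEM to 17.3, 18.2 and 19.5 FPKM in RPMI-1640. Its libraries did not overlap and it fell by 0.26 (SE 0.063, adjusted p = 0.00306), by 0.14 with the trend removed, while scaled to a common total the difference was -0.10 and did not pass.

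Promoters of these genes are shown because the E-box CACGTG, the letters that TFEB and other basic helix-loop-helix factors bind, was found in the RefSeq promoters (GRCm38.p6, 250 bases before to 50 after the start) of 4 of the 32 autophagy genes with a promoter in that set, and 3 of these 4 genes belong to the conjugation systems. It was in 7.15% of all 32851 promoters. Each line below gives 30 bases of the gene's strand, with the E-box in capitals.

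Atg3, chr16:45158723-45158752, plus strand: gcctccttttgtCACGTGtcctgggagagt
Atg3, chr16:45158746-45158775, plus strand: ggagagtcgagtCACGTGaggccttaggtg
Atg5, chr10:44268313-44268342, plus strand: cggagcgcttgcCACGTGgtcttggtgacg
Atg7, chr6:114670952-114670981, plus strand: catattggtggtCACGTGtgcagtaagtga
Atg14, chr14:47568418-47568447, minus strand: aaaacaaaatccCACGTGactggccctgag

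The E-boxes of Atg3 begin 94 and 71 bases before the start, that of Atg5 14 bases, that of Atg7 132 bases and that of Atg14 1 base before it. The RefSeq starts used for Atg7 and Atg14 lie 27999 and 2215 bases inside the gene as GENCODE draws it. Of the 4 genes with an E-box here, Atg3 was higher, Atg7 lower, and Atg5 and Atg14 did not pass. A match describes letters in this window and not binding.

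The E2-like enzyme for ATG12, Atg10, was at 3.39, 3.02 and 2.85 FPKM in DMEM and at 4, 3.42 and 3.85 FPKM in RPMI-1640, from 231 to 323 reads a library. No DMEM library reached the RPMI-1640 range, and Atg10 rose by 0.22 (adjusted p = 0.0275), but the pass was lost without DMEM replicate 2 (0.21), without DMEM replicate 3 (0.18), without RPMI-1640 replicate 1 (0.18) and without RPMI-1640 replicate 3 (0.20). It was also lost without a filter on low values (0.22), when quantile normalized (0.12) and with the trend removed (0.0047). Atg12, the ubiquitin-like modifier, was at 28.0, 25.1 and 24.4 FPKM in DMEM and at 30.3, 31.1 and 25.2 FPKM in RPMI-1640. The media overlapped, and the difference of 0.15 did not pass (adjusted p = 0.104), while with the replicate number as a block it passed as higher (adjusted p = 0.0215, with 0.00747 to 0.342 over the alternatives). It also passed without DMEM replicate 1 (0.21) and without RPMI-1640 replicate 3 (0.24). Atg5, to which ATG12 is attached, averaged 21.1 ± 1.02 FPKM in DMEM and 21.1 ± 0.815 in RPMI-1640 (SD, n = 3 each), with a 95% interval of the difference from -0.12 to 0.12. Atg16l1, which places the conjugate on the membrane, averaged 10.7 and 10.8 FPKM, and its paralog Atg16l2 4.12 and 4.36 FPKM, and neither passed. Scaled to a common total, Atg5 (0.16) and Atg16l2 (0.20) also passed as higher. Atg16l1 passed as lower with the trend removed and the replicate number as a block (-0.13).

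The ATG4 proteases prime ATG8 proteins and later release them from lipid. On the deposited values 1 of the 4 was higher, 1 was lower and 2 did not pass, whereas with the trend removed all 4 passed as lower. Atg4d (chr9:21265293-21277772, plus strand) was at 21.1, 18.7 and 21 FPKM in DMEM and at 13.9, 12.1 and 13.3 FPKM in RPMI-1640. All DMEM libraries were higher, and Atg4d fell by 0.60 (SE 0.068, adjusted p = 1.02e-05), or by 0.37 with the trend removed; 19.3% of its exon bases overlap Kri1 on the opposite strand. Atg4c was at 3.13, 3.19 and 2.47 FPKM in DMEM and at 3.64, 3.92 and 3.46 FPKM in RPMI-1640. It rose by 0.25 (adjusted p = 0.0204) with no overlap, did not pass without DMEM replicate 3 (0.17), without RPMI-1640 replicate 2 (0.22), without a filter on low values (0.25) or when quantile normalized (0.15), and passed as lower with the trend removed (-0.27). Atg4b, the main protease of the family, averaged 23.3 FPKM in DMEM and 21.6 in RPMI-1640, a difference of -0.11 that did not pass, though it did without DMEM replicate 2 (-0.14), when quantile normalized (-0.14) and with the trend removed (-0.13). Atg4a averaged 15.3 and 15 FPKM and did not pass, but passed as lower with the trend removed (-0.22). Its values are uncertain because 74.3% of its 32-base words also occur in the pseudogene Atg4a-ps. In DMEM, Atg4d made 32.8% of the summed ATG4 FPKM, and in RPMI-1640 24.5%, a difference of -8.28 percentage points that was -2.77 points with the trend removed.

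ATG8 proteins are the small proteins that coat the autophagosome and dock cargo receptors. The transcripts of all 5 ATG8 genes tested were lower in RPMI-1640, and all 5 were lower in each of the 17 settings tried. Of all genes tested, 35.4% were lower on the deposited values, and their share over every setting was not counted. The summed ATG8 level was 481, 449 and 477 FPKM in DMEM and 295, 299 and 309 FPKM in RPMI-1640, so every DMEM library lay above every RPMI-1640 library, and the mean in DMEM was 1.56-fold that in RPMI-1640 (exact permutation p = 0.1). Gabarap (chr11:69991143-69994951, plus strand) made up 49.3% of the sum in DMEM and 46.4% in RPMI-1640. It was at 239, 219 and 235 FPKM in DMEM and at 134, 140 and 145 FPKM in RPMI-1640, with no overlap, and fell by 0.72 (SE 0.051, adjusted p = 2.81e-07). Map1lc3a (chr2:155276297-155278073, plus strand), one of the LC3 genes, was at 38.5, 34.9 and 38.4 FPKM in DMEM and at 18.2, 17.8 and 19.9 FPKM in RPMI-1640. Its media did not overlap, and its fall of 0.96 (SE 0.061, adjusted p = 1.22e-07) was the largest of the 5 on the deposited values. Its GC content, 63.1%, is the highest of the 37 tested genes, and after removal of the trend the fall was 0.38, while that of Gabarap was 0.45.

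Map1lc3b (chr8:121590361-121598760, plus strand), whose LC3B protein is the usual marker of autophagosomes, was at 62.6, 60.9 and 66.6 FPKM in DMEM and at 43.8, 43.1 and 46.4 FPKM in RPMI-1640. The media did not overlap and it fell by 0.50 (SE 0.052, adjusted p = 4.26e-06), or by 0.29 with the trend removed. Gabarapl1 was at 99.1, 92.4 and 96.1 FPKM in DMEM and at 65.0, 67.1 and 66.5 FPKM in RPMI-1640, a fall of 0.53 (adjusted p = 1.09e-06). Gabarapl2 (GATE-16) was at 41.9, 41.7 and 40.5 FPKM in DMEM and at 33.7, 31.0 and 31.3 FPKM in RPMI-1640, a fall of 0.36 (adjusted p = 4.91e-05) and the smallest of the 5. Neither overlapped between the media, and each fell by 0.28 with the trend removed. The ratio of Map1lc3a to Map1lc3b was 0.589 ± 0.0234 in DMEM and 0.419 ± 0.00901 in RPMI-1640, and that of Gabarap to Gabarapl2 5.59 ± 0.301 and 4.37 ± 0.354 (SD, n = 3 each; exact permutation p = 0.1 for both). With other genes, Gabarapl2 shares 20.7% of its 32-base words and Map1lc3b 12.1%, and 28.3% of the exon bases of Gabarapl1 overlap the opposite-strand gene 1700101I11Rik.

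**Figure D3:**
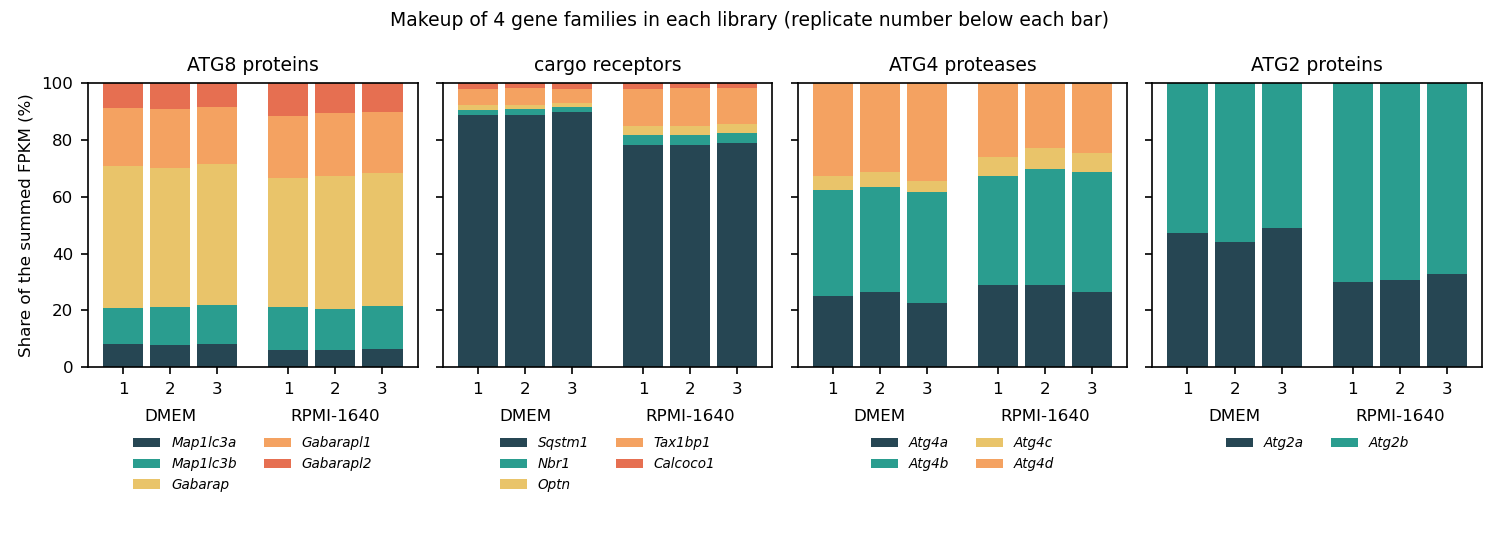
Share of each gene in the summed FPKM of its family (percent, stacked to 100) for each library. Sqstm1 makes up 89.0% of the cargo receptor sum in DMEM and 78.4% in RPMI-1640, and Atg2a 46.7% and 31.0% of the ATG2 sum. The mean ATG8 shares of the media are at most 2.88 percentage points apart.

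Because the 5 ATG8 genes moved together, the promoters that RefSeq (GRCm38.p6) gave for 4 of them are shown, each 300 bases of the gene's strand from 250 before to 50 after the start. Capitals mark TGACNNNGC (an antioxidant response element core) in Map1lc3b and CCGGAAGT (an ETS site) in Gabarapl2.

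Map1lc3b, chr8:121590188-121590487, plus strand: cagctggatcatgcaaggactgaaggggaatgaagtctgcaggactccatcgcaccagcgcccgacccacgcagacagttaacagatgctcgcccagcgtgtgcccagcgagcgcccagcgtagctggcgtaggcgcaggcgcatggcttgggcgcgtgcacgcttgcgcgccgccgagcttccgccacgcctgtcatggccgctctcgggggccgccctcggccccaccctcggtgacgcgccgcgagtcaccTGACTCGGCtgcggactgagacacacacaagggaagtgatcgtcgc
Gabarap, chr11:69991120-69991419, plus strand: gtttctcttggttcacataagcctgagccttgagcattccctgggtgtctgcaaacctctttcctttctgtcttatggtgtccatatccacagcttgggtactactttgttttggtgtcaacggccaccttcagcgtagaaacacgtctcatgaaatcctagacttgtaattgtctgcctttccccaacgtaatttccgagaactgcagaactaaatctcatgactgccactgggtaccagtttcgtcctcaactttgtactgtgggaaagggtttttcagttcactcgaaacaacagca
Gabarapl1, chr6:129532942-129533241, plus strand: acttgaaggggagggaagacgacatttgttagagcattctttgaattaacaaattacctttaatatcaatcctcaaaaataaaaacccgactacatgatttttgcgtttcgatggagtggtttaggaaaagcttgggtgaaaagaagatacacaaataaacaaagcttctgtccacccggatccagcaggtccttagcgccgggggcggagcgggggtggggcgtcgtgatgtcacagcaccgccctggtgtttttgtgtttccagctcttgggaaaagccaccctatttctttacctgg
Gabarapl2, chr8:111940453-111940752, plus strand: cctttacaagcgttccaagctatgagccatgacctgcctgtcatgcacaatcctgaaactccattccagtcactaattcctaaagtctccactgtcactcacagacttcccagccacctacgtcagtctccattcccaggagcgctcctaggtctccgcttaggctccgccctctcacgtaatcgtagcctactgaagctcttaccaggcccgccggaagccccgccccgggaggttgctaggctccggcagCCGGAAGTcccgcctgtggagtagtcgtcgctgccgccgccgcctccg

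The 4 promoters differ in composition, with a GC content of 68.0% in Map1lc3b and 60.0% in Gabarapl2, against 45.7% in Gabarap and 46.3% in Gabarapl1. The median was 59.7% over 36 promoters of the autophagy genes and 52.7% over all 32851. The start used for Gabarap lies 227 bases inside the gene as GENCODE draws it, so most of its window is within the gene. That of Map1lc3b lies 77 bases inside. Other starts in the counts below also lie inside the gene, such as those of Atg4b (3405 bases), Wipi2 (1886) and Wipi1 (578). Both strands were searched for 9 motifs. The TGACNNNGC match of Map1lc3b begins 4 bases after the start, and that motif was found in 4 of 32 autophagy genes (Atg13, Map1lc3b, Tax1bp1 and Ulk2) and in 12.4% of all promoters. The CCGGAAGT match of Gabarapl2 begins 2 bases after the start, and Atg101 also held one, against 3.89% of all promoters. None of the 4 ATG8 promoters held the E-box CACGTG. None of the 32 genes held its 10-base form with GT before and AC after it (the palindrome of the CLEAR element, 0.326% of all promoters), TGATGNAA (the core of the composite element bound by ATF4, 3.97%) or GTAAACA (a forkhead core, 3.65%). TGACGTCA (a cAMP response element) was in 2 genes, Atg16l2 and Atg5 (1.79% of all promoters). ACGTG, which overlaps CACGTG, was in 15 of the 32 genes (46.9%), against 19.6% of all promoters. An autophagy gene with more than 1 promoter counts once, while the background counts each promoter, and no difference was tested.

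The cargo receptor genes differed in both directions, with Sqstm1 and Calcoco1 lower, Tax1bp1 and Optn higher, and Nbr1 not passing. Sqstm1 (chr11:50199366-50210827, minus strand) encodes p62, the receptor that gathers ubiquitinated proteins and is itself degraded by autophagy. It was at 1159, 1159 and 1222 FPKM in DMEM and at 590, 600 and 629 FPKM in RPMI-1640, with 45366 to 111900 reads a library. The DMEM libraries were 1.95-fold higher on average, with no overlap, and Sqstm1 fell by 0.96 (SE 0.052, adjusted p = 4.38e-08). With the trend removed it fell by 0.70, the largest fall of the 37 genes there. It was the highest of the autophagy genes in both media, at the 99.6th percentile of all tested genes in DMEM and the 99.3rd in RPMI-1640. Of its exon bases, 17.3% overlap Mrnip on the opposite strand.

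The promoter of Sqstm1 is shown as that of the most abundant gene, with TATAAA, which begins 1 base before the start used, in capitals (RefSeq, GRCm38.p6, the gene's strand).

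Sqstm1, chr11:50210771-50211070, minus strand: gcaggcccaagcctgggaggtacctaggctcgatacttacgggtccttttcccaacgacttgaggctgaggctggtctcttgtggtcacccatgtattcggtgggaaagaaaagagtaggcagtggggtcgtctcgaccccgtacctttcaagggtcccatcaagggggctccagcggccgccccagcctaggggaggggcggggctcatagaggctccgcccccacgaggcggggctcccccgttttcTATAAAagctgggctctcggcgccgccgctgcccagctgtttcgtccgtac

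This promoter has a GC content of 63.3%. TATAAA occurred in 13.6% of all promoters and in 2 of the 32 autophagy genes, Sqstm1 and Atg4a. TGACNNNGC and CACGTG are not in this window.

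Calcoco1 (chr15:102706777-102722178, minus strand), a receptor for the endoplasmic reticulum and Golgi, was at 26.5, 25.1 and 27.7 FPKM in DMEM and at 15.4, 14.8 and 14.9 FPKM in RPMI-1640. The media did not overlap, and Calcoco1 fell by 0.78 (SE 0.055, adjusted p = 2.84e-07), or by 0.51 with the trend removed. Tax1bp1 (chr6:52713729-52766780, plus strand), a ubiquitin-binding receptor related to it, was at 75.9, 74.4 and 66.4 FPKM in DMEM and at 98.2, 101 and 99.6 FPKM in RPMI-1640. Every RPMI-1640 library was higher, a rise of 0.46 (SE 0.055, adjusted p = 1.34e-05), and its GC content of 39.6% goes with a rise of 0.099 once the trend was removed. Optn (chr2:5020642-5064051, minus strand), the optineurin receptor of mitochondria and bacteria, was at 21.2, 21 and 21.8 FPKM in DMEM and at 25.0, 24.6 and 26.0 FPKM in RPMI-1640. All RPMI-1640 libraries were higher, and Optn rose by 0.23 (SE 0.050, adjusted p = 0.00131) and by 0.31 with the trend removed, the largest rise of the 37 genes there. Nbr1, a p62-related receptor that shares its cargo, was at 26.0, 26.9 and 24.2 FPKM in DMEM and at 27.4, 26.9 and 27.6 FPKM in RPMI-1640, and did not pass (0.086, 95% interval from -0.03 to 0.20). Its difference was 0.051 with the trend removed, without a pass, and scaled to a common total it passed as higher (0.24).

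The summed level of the 5 receptors was 1309, 1307 and 1362 FPKM in DMEM and 756, 767 and 797 FPKM in RPMI-1640, with no overlap. Sqstm1 made 89.0% ± 0.624 of the sum in DMEM and 78.4% ± 0.460 in RPMI-1640, and Tax1bp1 5.45% ± 0.505 and 12.9% ± 0.329 (SD, n = 3 each; exact permutation p = 0.1 for both). The change in share was -10.6 percentage points for Sqstm1 and 7.42 for Tax1bp1, and with the trend removed -6.81 and 4.06. There were 16.4 ± 1.73 Sqstm1 fragments per kilobase for each of Tax1bp1 in DMEM and 6.09 ± 0.192 in RPMI-1640. The ratio of Sqstm1 to Nbr1 was 46.1 ± 3.97 and 22.2 ± 0.652.

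**Figure D4:**
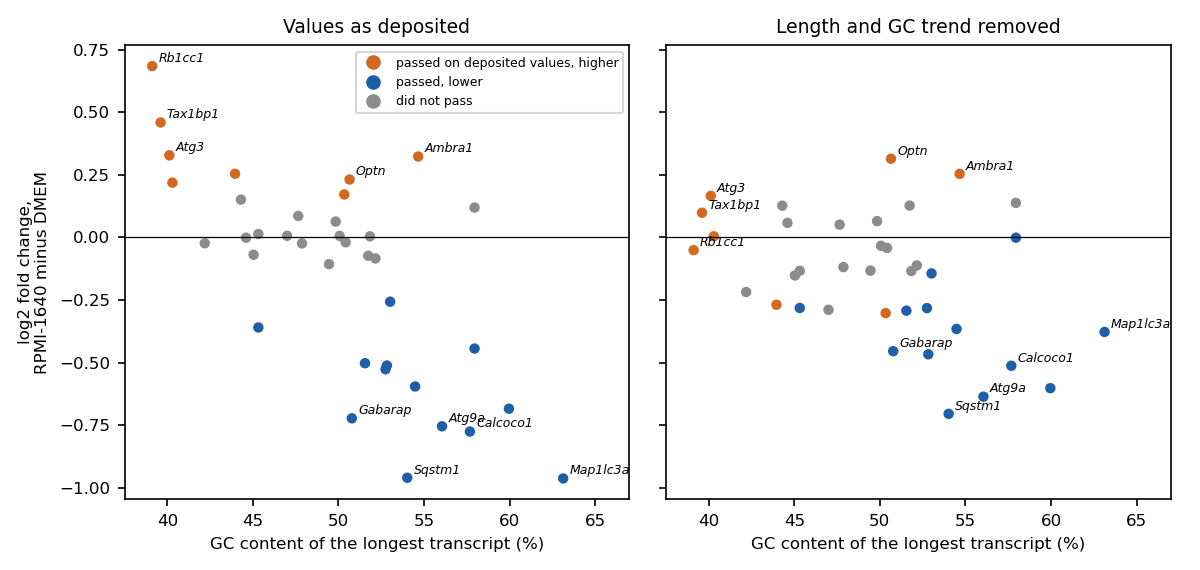
Log2 fold change between the media against GC content of the longest transcript (percent) for the 37 tested autophagy genes, on the deposited values (left) and with the length and GC trend removed (right), coloured by the call on the deposited values. Spearman's correlation is -0.66 on the left and -0.38 on the right. Sqstm1, Atg9a, Calcoco1 and Map1lc3a stay below 0 in both panels, and Ambra1 and Optn above it.

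The median coefficient of variation of the 37 tested genes between libraries of a medium was 5.26% in DMEM and 3.87% in RPMI-1640, and the highest values were 17.4% for Rb1cc1 in DMEM and 14.3% for Atg14 in RPMI-1640. By level, Sqstm1 ranked 1 and Gabarap 2 in both media. Gabarapl1 ranked 3 in DMEM and 4 in RPMI-1640, and Tax1bp1 4 and 3.

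Around the core machinery, 6 further lists of 110 tested genes were compared in the same fit, of which 39 were higher, 52 lower and 19 did not pass, or 82.7% that passed against 76.0% of all genes. By direction, 40.6% of all genes were higher and 35.4% lower, or 37.2% and 36.8% with the trend removed. The 24 tested transcription factors and nutrient inputs had 14 higher, 8 lower and 2 that did not pass. With the trend removed this became 10, 9 and 5, and the median log2 fold change went from 0.26 to 0.039. Tfeb, a master regulator of lysosomal and autophagy genes, was at 17.7, 18.7 and 22.3 FPKM in DMEM and at 8.72, 8.41 and 8.50 FPKM in RPMI-1640. No RPMI-1640 library reached the DMEM range, and Tfeb fell by 1.10 (SE 0.079, adjusted p = 2.91e-07), or by 0.69 with the trend removed. Fnip1, a folliculin partner, rose by 0.80, which was 0.22 with the trend removed.

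Of the 20 genes of the lysosome, where the pathway ends, 14 were lower, 2 were higher and 4 did not pass. Their median log2 fold change was -0.44 against 0.033 for all genes, of which 35.4% were lower and 40.6% higher. After removal of the trend 17 were lower, 0 were higher and 3 did not pass, with a median of -0.34. All genes then had 36.8% lower and 37.2% higher. Ctsd, the aspartic protease cathepsin D, averaged 1244 ± 70.9 FPKM in DMEM and 599.6 ± 31.8 in RPMI-1640 (SD, n = 3 each), a fall of 1.05 that was 0.74 with the trend removed. The proteases Ctsb and Ctsa fell by 0.95 and 0.84, or by 0.99 and 0.71 with the trend removed. The 20 fusion genes had 12 lower, 4 higher and 4 that did not pass, or 11, 4 and 4 with the trend removed, where 1 gene had no GC value. Vamp8, a SNARE of autophagosome fusion, fell by 1.24, its partner Stx17 rose by 0.92, and Vps18, a subunit of the HOPS tether, fell by 0.69. Adjusted for the trend, Vamp8 fell by 0.91, Stx17 rose by 0.38 and Vps18 fell by 0.56.

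Of 13 tested regulators of induction, 8 were higher, 3 lower and 2 did not pass, or 6, 3 and 4 with the trend removed. For this list and those below, the shares of all genes were 40.6% higher and 35.4% lower. With the trend removed they were 37.2% and 36.8%. Bcl2, which binds Beclin 1, rose by 1.07, Bcl2l1, its relative, fell by 0.65, and Snx18, a membrane remodelling protein, rose by 0.55. Adjusted for the trend, Bcl2 rose by 0.73, Bcl2l1 fell by 0.43 and Snx18 rose by 0.47. The 16 phagophore and lipid supply genes had 6 higher, 7 lower and 3 that did not pass. Here removal of the trend left 2 higher, 11 lower and 3 that did not pass, and the median went from -0.078 to -0.26. The membrane protein gene Ei24 fell by 0.69 (by 0.61 with the trend removed), the small GTPase gene Rab1b fell by 0.58 (by 0.18), and the lipid transfer gene Vps13a rose by 0.70 but passed as lower with the trend removed (-0.21). Of the 17 tested other adaptors and receptors, 5 were higher, 8 lower and 4 did not pass, or 3, 7 and 4 with the trend removed, where 3 genes had no GC value. Wdfy3 (ALFY), a scaffold for aggregates, rose by 1.09, Tex264, a receptor for the endoplasmic reticulum, fell by 0.91, and the immunity-related GTPase gene Irgm1 fell by 0.93. Adjusted for the trend, Wdfy3 rose by 0.42, Tex264 fell by 0.44 and Irgm1 fell by 1.01.

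**Figure D5:**
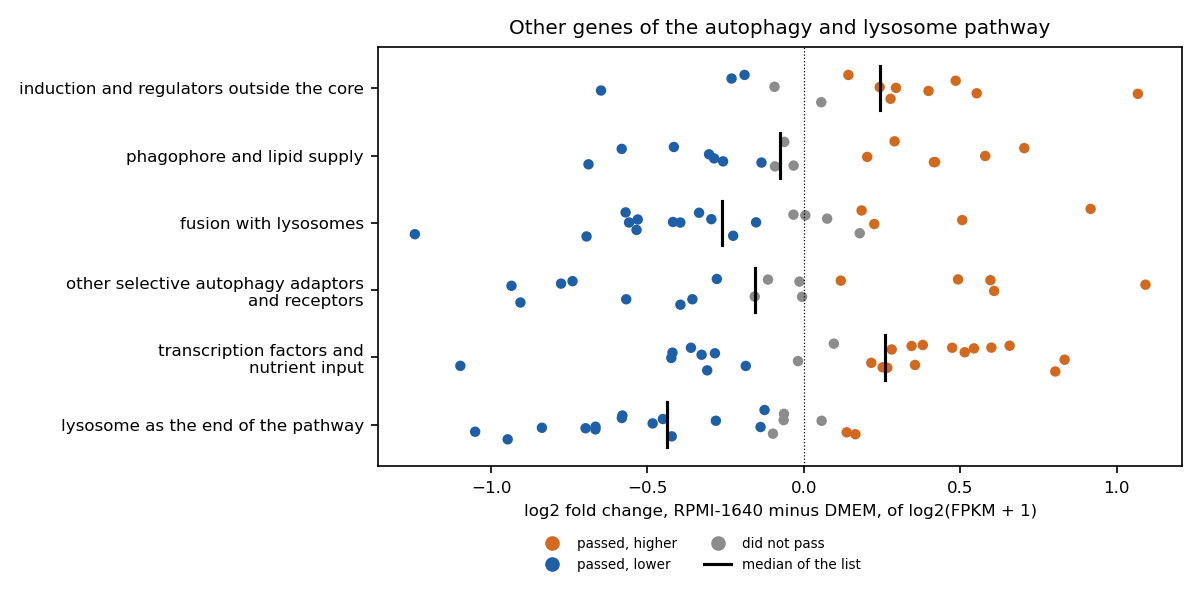
Log2 fold change between the media for the 110 tested genes of 6 further lists of the autophagy and lysosome pathway, with a point for each gene coloured by its call and a bar at each list's median. The median is -0.44 for the lysosome list and 0.26 for transcription factors and nutrient input, which were -0.34 and 0.039 with the length and GC trend removed (not drawn).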

How the data were processed

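The deposited table holds FPKM computed by the authors for each library, named as such by the table itself. Libraries were made from 2 µg of total RNA with a SMARTer kit, per the labels' protocols, and the builds GRCm38 and mm10 are named by the submitters' processing notes. For the aligner, counter, annotation and use of strand, the sources used here give nothing. The 10624 genes averaging at least 1 FPKM entered limma 3.58.1 (R 4.3.3; lmFit, eBayes, trend on). The model held medium alone, the values were log2(FPKM + 1), and p-values were adjusted by Benjamini-Hochberg over all of them. Shares and ratios were compared by exact two-sided permutation. Whole reads were recovered from the FPKM steps (all 10624 tested genes within 0.02 of a whole number) and gave the depths. Closeness to whole numbers was itself used to find the reads, so it is not a separate check. The depths rest on 174 of 1727 single-transcript genes that agreed on the total. The gene lengths in the medians, correlations and trend also came from the FPKM steps, and can differ from the longest GENCODE transcript. A recovered length may be a divisor of the true length, with the reads reduced alike. The length and GC trend was fitted in each library with natural splines of 5 degrees of freedom each, with GC content, positions and shared 32-base words from GENCODE M21. GC content and shared words are of the longest transcript, and exon overlaps are over all transcripts. These can cover more bases than were counted. Longest and recovered lengths were 5951 and 2269 bases for Atg4d, 4765 and 1507 for Atg12, and 4138 and 1712 for Map1lc3b. Of these steps, only the limma fit was tested on simulated data, which held no length or GC trend.

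Same-numbered libraries deviated together from their group means (correlation across genes 0.151, 0.150 and 0.382, each over 0.1). This meets the rule set for pairing, from the data alone, but numbers 1 and 2 are hardly told apart: DMEM replicate 2 with RPMI-1640 replicate 1 gave 0.137, and DMEM replicate 1 with RPMI-1640 replicate 2 gave 0.131. With the trend removed the same-number values were 0.0563, 0.0407 and 0.151 and the rule was not met. The main fit and the permutation tests are unpaired, and the blocked fit is an alternative. The autophagy genes, role groups and further lists were chosen with earlier results of these data known. The genes named were all autophagy genes and up to 3 passing genes with the largest change in each further list, of which 1 is not reported here. Retreg1, Retreg2, Retreg3 and Pip4p1 were matched through RefSeq synonyms, and Vamp7 was not matched. RefSeq promoters matched 32 of 38 genes; Map1lc3a, Atg12, Pik3c3, Rb1cc1, Atg16l1 and Becn1 had no entry.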

Additional observations from a re-analysis of the deposited data

How the results depend on the processing

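Of the 16 alternatives, 15 were chosen with the design and 1, voom on the recovered reads, after seeing the data. The planned count tests were not run, because the deposited unit is FPKM. Against 8 higher and 13 lower autophagy genes, those higher numbered 15 scaled to a common total, 5 after quantile normalization and 5 with the length and GC trend removed. With a mean of at least 5 FPKM they numbered 5, because Rb1cc1, Atg4c and Atg10 were below that mark and not tested. The 32 autophagy genes still tested there kept their calls, and 3423 of all 8485 genes tested were higher. Those lower numbered 20 with the trend removed and 21 with a replicate block and the trend removed. Leaving out each library in turn gave 6 to 9 higher and 13 to 14 lower. The replicate block alone gave 9 higher and 13 lower; it changed the call of Atg12 (0.15) and of no other autophagy gene. Genes of the further lists that were higher numbered 25 with the trend removed and 24 with a replicate block and the trend removed, against 39. The common total moved the median log2 fold change of all genes from 0.033 to 0.18 and that of the autophagy genes from -0.023 to 0.13.

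Genes that pass in at least 1 of both settings and change sign were, with the trend removed, Ulk2 (-0.29), Rb1cc1 (-0.051), Pik3r4 (-0.13), Atg2b (-0.30) and Atg4c (-0.27), the same with the block, where Atg16l1 (-0.13) joined them. Scaled to a common total, Uvrag (0.14) and Atg5 (0.16) did so. The cause was not tested. Removing the trend changed the difference in family share between the media by more than the spread between libraries for the genes that follow. The values given are the differences left, RPMI-1640 minus DMEM in percentage points, and not the amounts of change. They were Ulk1 7.84 and Ulk2 -7.84, Atg2a -5.82 and Atg2b 5.82, Atg4a 0.239, Atg4c -0.413 and Atg4d -2.77, Wipi1 3.78 and Wipi2 -3.78. For the ATG8 genes they were Map1lc3a -0.0735, Map1lc3b 0.772 and Gabarapl2 0.596. For the receptors they were Sqstm1 -6.81, Nbr1 1.18, Optn 1.49, Tax1bp1 4.06 and Calcoco1 0.0706. Leaving out a library changed no share difference by more than that spread. Depth limits Atg9b, at 10 to 47 reads, which was not tested.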
